A study of Oryctolagus cuniculus with 6 samples.

Results

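Retinal ganglion cells are the output neurons of the retina, and their axons run in the nerve fibre layer and form the optic nerve. Their identity is held by transcription factors and membrane proteins that many injuries of the eye reduce, whereas damage to their axons can switch on a growth and stress program. The 10 genes described here cover both sides, and all 10 were found by symbol among the 28788 genes of the deposited tables. RBPMS, POU4F1, POU4F2, SNCG, THY1, ISL1 and SLC17A6 are identity genes of ganglion cells, GAP43 and STMN2 are growth genes of axons, and ATF3 is a stress-induced transcription factor of injured neurons. The rule that names them is worded by their roles, but they were chosen with earlier results of these data known.

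RNA was sequenced from 3 normal rabbit retina samples and 3 retina samples of a rabbit model of proliferative vitreoretinopathy (PVR), in which scar membranes form on the retina. Adult rabbits were used. For PVR, the sclera was pierced, some vitreous was removed and platelet-rich plasma was placed in the vitreous cavity, whereas the labels of the control samples say only that they are normal. The sources used here give no strain, sex, time after injection or retinal region, and do not say that samples come from separate animals, so the p-values measure the spread between these samples, which may be technical.

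The libraries held between 31904593 and 43035080 counted reads. Levels are given as CPM, the read count relative to library size, scaled by TMM, a method that sets the samples to a common scale, and differences as log2 fold changes of PVR over normal from edgeR. A gene was taken as changed at an adjusted p under 0.05, which 1.7% of the 18697 genes tested reached. The tissue label fitted its markers, as the 6 rod genes summed to between 27840 and 46370 CPM and none of them was at 0. Normal replicate 2 stood apart, with 29910 CPM in 7 lens genes. Normal replicates 1 and 3 had 15.1 and 11.5 CPM in these genes, and the PVR samples had more, at 250 to 284 CPM. The 6 oligodendrocyte genes summed to 223, 537 and 1130 CPM in the normal samples and to between 114 and 137 CPM in PVR. Without normal replicate 2 or normal replicate 3, edgeR again called 0 of the 10 genes. The count was also 0 with all samples, so it cannot show whether these samples matter. In all 6 oligodendrocyte genes every PVR sample was below every normal sample, as in 14.6% of all genes tested. Leaving out 1 normal sample cannot remove that difference.

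None of the 10 genes passed the adjusted threshold in edgeR, and 1 of them, ATF3, had an unadjusted p under 0.05, against 21.2% of all genes tested. ATF3 was also the single member with every PVR sample above every normal sample, where 28% of all genes had groups that did not overlap in either direction. The other 9 genes overlapped between the groups. Their log2 fold changes lay between -0.34 and 0.02, and 8 of the 9 were negative, as were 51.1% of all genes tested. DESeq2, which called 9.85% of its genes and 5.99% as higher in PVR, called ATF3 and no other member. Since these are bulk retina samples, fewer ganglion cells and less of an RNA per cell cannot be told apart.

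**Figure D1:**
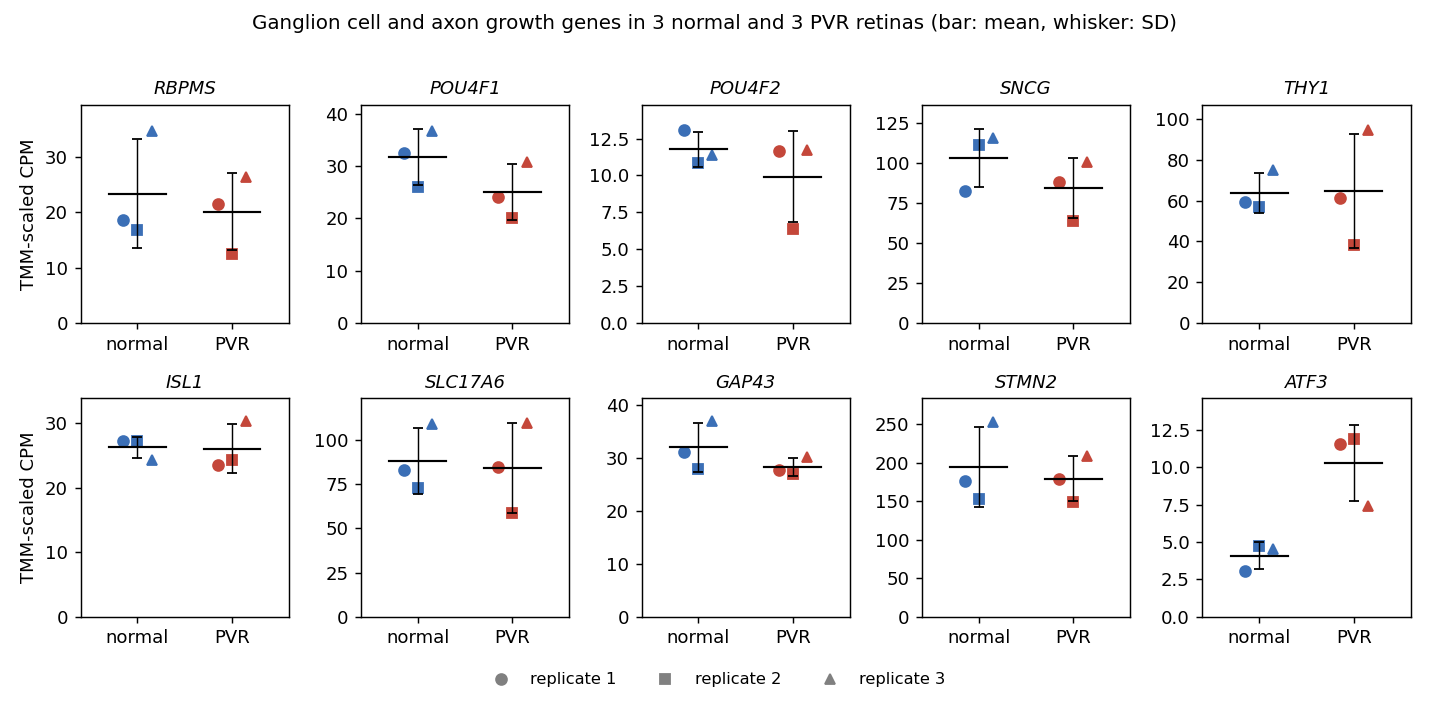
TMM-scaled CPM of each of the 10 genes in 3 normal (blue) and 3 PVR (red) samples, with the replicate as the symbol, the mean as a bar and the SD as a whisker. ATF3 is the panel in which the groups separate, at 3.05 to 4.71 CPM against 7.39 to 11.9 CPM, and in the other 9 panels they overlap.

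POU4F1 and POU4F2 are POU-domain transcription factors that set up and maintain most ganglion cells. POU4F1 stood at 32.4, 25.9 and 36.6 CPM in the normal samples and at 24.1, 20.1 and 30.8 CPM in PVR. Replicates 1 and 2 of PVR were under all normal samples, and PVR replicate 3 was not. Its log2 fold change was -0.34 (SE 0.19), the lowest of the 10, with an edgeR adjusted p of 0.340. POU4F2 had 13.1, 10.8 and 11.4 CPM in the normal samples and 11.7, 6.34 and 11.8 CPM in PVR. Here PVR replicate 2 alone was low, with 213 counts against 381 to 510 in the other samples. The fitted difference was -0.25 on the log2 scale (SE 0.25, adjusted p = 0.593). The 95% intervals, which are not adjusted for the number of genes, ran from a ratio of 0.580 to 1.08 for POU4F1 and from 0.560 to 1.26 for POU4F2.

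RBPMS, an RNA-binding protein found in nearly all ganglion cells, had 18.6, 16.8 and 34.8 CPM in the normal samples and 21.5, 12.5 and 26.4 CPM in PVR. The highest sample was 2.07 times the lowest in normal, the widest range of the 10 genes in that group, and 2.11 times in PVR. The median of this range over all genes tested was 1.32 in normal and 1.31 in PVR. Its log2 fold change of -0.21 (SE 0.35, adjusted p = 0.751) became 0.20 without normal replicate 3 and 0.04 without PVR replicate 2. The interval of the ratio, 0.488 to 1.52, was the widest toward a loss among the identity genes.

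ISL1, a LIM-homeodomain factor that ON bipolar and cholinergic amacrine cells also use, varied least among the identity genes. Its level was 27.3, 27.2 and 24.4 CPM in the normal samples and 23.6, 24.3 and 30.4 CPM in PVR. The log2 fold change was -0.01 (SE 0.13, adjusted p = 0.975), with a ratio between 0.802 and 1.23. A fall of ISL1 RNA below 0.802 of the normal level thus lay outside the interval. The 6 bipolar markers summed to 953 to 1042 CPM in the normal samples and to 867 to 1031 CPM in PVR.

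SNCG encodes gamma-synuclein, a cytosolic protein abundant in ganglion cell bodies and axons. It reached 82.7, 112 and 116 CPM in the normal samples and 88.3, 64.1 and 101 CPM in PVR (log2 fold change -0.29, SE 0.19, adjusted p = 0.405). SLC17A6, the vesicular glutamate transporter of ganglion cells, had 83.2, 72.9 and 109 CPM in normal and 85.2, 58.7 and 110 CPM in PVR. The highest samples of both groups were alike in SLC17A6, and its log2 fold change was -0.07 (SE 0.24, adjusted p = 0.890).

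THY1, a surface glycoprotein of ganglion cells and also of fibroblasts, was spread most in PVR. It had 59.4, 56.9 and 74.9 CPM in the normal samples and 61.3, 38.4 and 94.4 CPM in PVR. Both the lowest and the highest of the 6 samples were PVR samples, and they differed by 2.46 times. The log2 fold change was 0.02 (SE 0.29, adjusted p = 0.972). It was 0.29 without PVR replicate 2 and -0.36 without PVR replicate 3, so its direction was set by single samples. The 5 fibroblast markers summed to 174, 104 and 244 CPM in PVR, the same order as THY1, and to 78.2 to 99.3 CPM in normal. Of the 5, the collagen genes COL1A1 and COL1A2 and DCN each had that order in PVR, and PDGFRA and LUM had the reverse. The part of these cells in the THY1 level was not tested.

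GAP43, a growth cone protein under the plasma membrane, is used by axons that grow or regrow. Its level was 31.1, 27.9 and 37.0 CPM in the normal samples and 27.7, 27.0 and 30.2 CPM in PVR. The PVR samples lay close together, and 2 of the 3 were under all normal samples. The log2 fold change was -0.18 (SE 0.13, adjusted p = 0.456). STMN2, a microtubule regulator of growing axons, had 176, 153 and 252 CPM in normal and 179, 149 and 208 CPM in PVR (log2 fold change -0.12, SE 0.20, adjusted p = 0.762). The upper bounds of the ratio were 1.09 for GAP43 and 1.28 for STMN2, so a doubling of either RNA lay outside its interval.

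**Figure D2:**
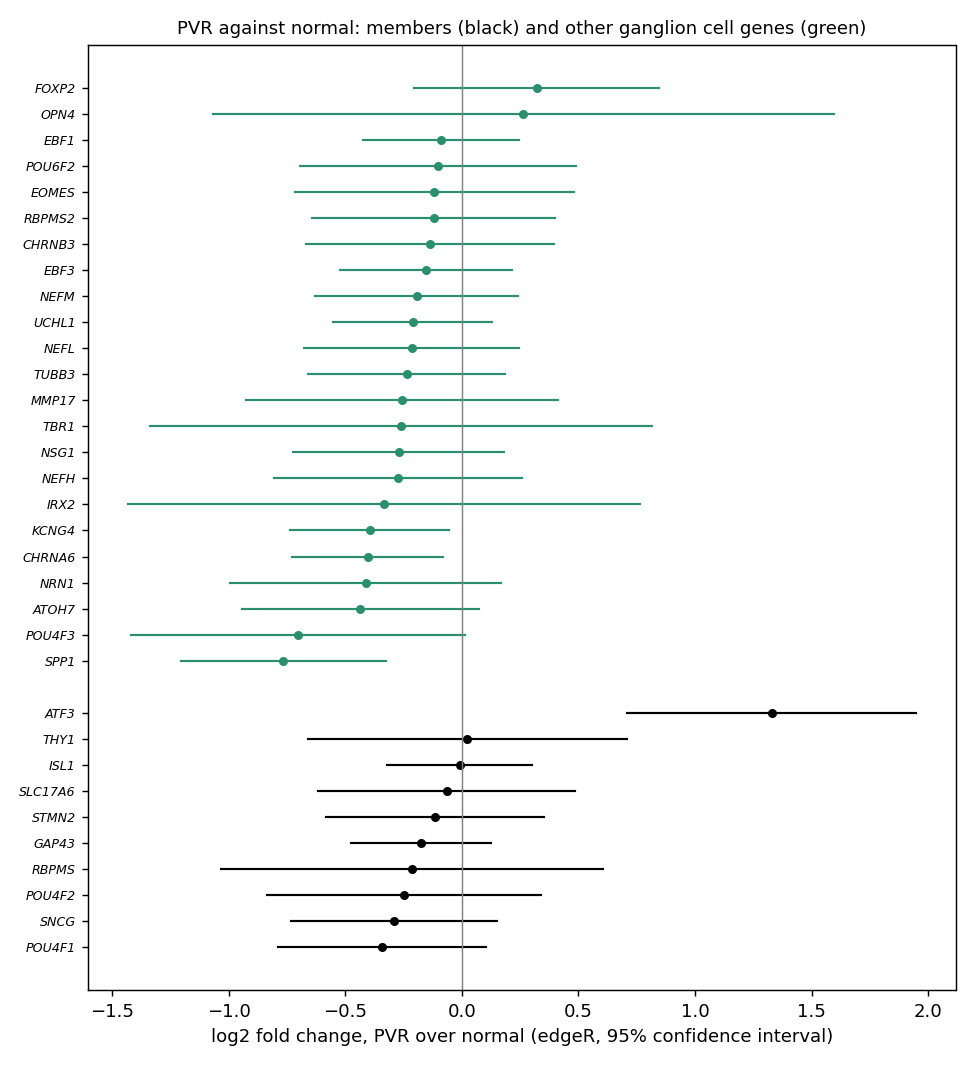
Log2 fold change of PVR over normal (horizontal axis) with its 95% confidence interval from edgeR, for the 10 members in black and 23 other ganglion cell genes in green. Of these intervals, that of ATF3 lies above 0 and those of SPP1, KCNG4 and CHRNA6 lie below 0, without adjustment for the number of genes.

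ATF3 is a bZIP transcription factor that is nearly silent in resting neurons and is induced in axotomised ganglion cells, and stressed glia and immune cells also make it. It stood at 3.05, 4.71 and 4.53 CPM in the normal samples and at 11.6, 11.9 and 7.39 CPM in PVR. All 3 PVR samples were above all normal samples, and PVR replicate 3 was the lowest of them. The counts were 116, 183 and 181 in normal and 379, 400 and 321 in PVR. The mean was 4.09 ± 0.911 CPM (SD, n = 3) in normal and 10.3 ± 2.52 CPM (SD, n = 3) in PVR. ATF3 thus had a log2 fold change of 1.33 (SE 0.27), a ratio between 1.63 and 3.86. Its unadjusted p from edgeR's quasi-likelihood test over all genes was 0.00129, and the adjusted p was 0.0612. With DESeq2 the same fold had an adjusted p of 0.000159. Without PVR replicate 3 the edgeR adjusted p was 0.033, and over the 15 alternatives it was under 0.05 in these 2 and reached 0.271 without PVR replicate 1. The log2 fold change stayed between 1.06 and 1.52.

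The cell type in which ATF3 was made cannot be read from bulk retina. All 6 microglia markers had the PVR samples entirely above the normal ones, as did 13.4% of all genes tested, and their sum was 24.7 to 42.4 CPM in normal and 56.1 to 69.4 CPM in PVR. The 4 astrocyte markers summed to 94.9 to 308 CPM in normal and 441 to 497 CPM in PVR, most of it GFAP at 58.7 to 247 CPM and 391 to 452 CPM. The other astrocyte markers did not follow GFAP, as PAX2, at 0.814 to 3.20 CPM in normal and 0 to 0.0921 CPM in PVR, and ALDH1L1, at means of 14.4 and 9.79 CPM, had all PVR samples below all normal ones, and S100B overlapped. PVR replicate 3 was the lowest PVR sample in both sums, as in ATF3, but not in every marker. Within PVR, AIF1, CX3CR1, PTPRC and CD68 were lowest in replicate 3, and CSF1R and P2RY12 in replicate 2. Of the astrocyte markers, GFAP alone was lowest in PVR replicate 3, and PAX2 and S100B had their highest PVR level there. The part of these cells in the ATF3 level was not tested. None of these 10 markers was at 0 in all samples. The 6 markers of Mueller glia, other glial cells of the retina, summed to 2283 to 2900 CPM in normal and 1800 to 2064 CPM in PVR. Of the 6, GLUL and RLBP1 were called lower (edgeR adjusted p = 0.0125 and 0.0294), and the rest overlapped between the groups. PVR replicate 3 was the highest PVR sample in this sum, and the part of Mueller glia in the ATF3 level was not tested either.

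Levels between genes were compared in FPKM, which divides the count by gene length. In the normal samples SNCG was the most abundant at 140 ± 25.0 FPKM (SD, n = 3), followed by STMN2 at 94.0 ± 27.3 (SD, n = 3), and the ranges of these neighbours overlapped. THY1 came next at 35.9 ± 6.28 FPKM (SD, n = 3), apart from both neighbours. GAP43 and SLC17A6, at 20.2 ± 3.37 and 19.2 ± 4.50 FPKM (SD, n = 3), did not differ beyond their spread. The same held for ISL1 and RBPMS, at 10.2 ± 0.475 and 7.84 ± 3.50 FPKM, and for RBPMS and POU4F1, at 6.15 ± 1.18 FPKM. POU4F2 at 3.59 ± 0.390 and ATF3 at 2.07 ± 0.455 FPKM (SD, n = 3) were last and did not overlap with each other. In PVR the order was the same apart from SLC17A6 and GAP43, which changed places within their spread, and ATF3. At 5.47 ± 1.40 FPKM (SD, n = 3), ATF3 was above POU4F2 without overlap in PVR, and its range overlapped those of RBPMS and POU4F1.

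The 9 genes other than ATF3 followed much the same order of samples. PVR replicate 2 was the lowest of all 6 samples in 8 of the 9. It was lowest in 26.1% of all genes tested and in 34.1% of those with a mean of at least 10 CPM. Among markers of other retinal neurons it was lowest in 5 of 6 rod, 4 of 6 bipolar, 5 of 8 amacrine and 2 of 4 horizontal cell genes. PVR replicate 3 was the highest PVR sample in 9 of 9. In 8 of the 9, PVR replicate 2 was at the same time the lowest PVR sample. That order was found in 30.4% of all genes tested and in 39% of those with a mean of at least 10 CPM. Relative to the mean of the normal samples, the 9 genes had a median of 92.0%, 63.4% and 107% in PVR replicates 1, 2 and 3. In the normal samples the medians were 94.1%, 87.3% and 116%. Normal replicate 3, the highest normal sample in 7 of 9, was also the sample with the most oligodendrocyte RNA, given above. The other normal samples had the opposite order, as normal replicate 1 had less oligodendrocyte RNA than normal replicate 2 and the higher median. The part of oligodendrocytes in the level of the 9 genes was not tested.

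**Figure D3:**
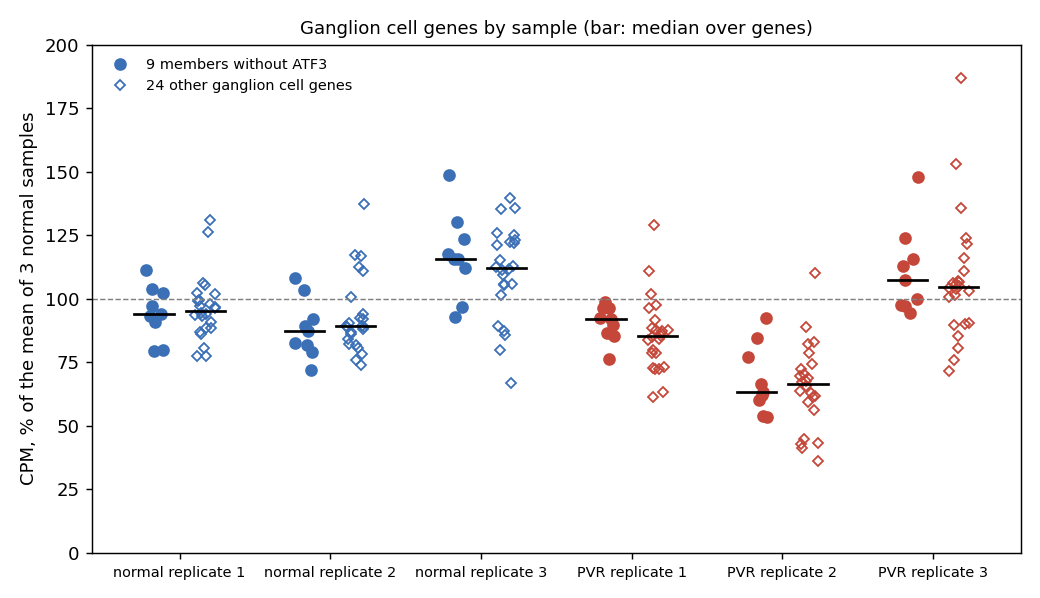
Level of each gene in each sample as a percentage of its mean over the 3 normal samples, for the 9 members without ATF3 (filled circles) and 24 other ganglion cell genes (open diamonds), with the median as a bar. The medians of PVR replicate 2 are the lowest at 63.4% and 66.5%, and those of normal replicate 3 the highest at 116% and 112%.

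The ratio of PVR replicate 2 to PVR replicate 3 had a median of 0.635 over the 9 genes and ran from 0.407 in THY1 to 0.895 in GAP43. Markers of other retinal neurons were also lower in replicate 2, by medians of 0.744 for 4 horizontal cell, 0.793 for 6 rod, 0.801 for 6 bipolar and 0.826 for 8 amacrine genes. Over genes with a mean of at least 10 CPM the median ratio was 0.956. These are ratios of single libraries and were not tested. The median log2 fold change of the 9 genes depended on which samples were in the fit. It was -0.18 with all samples, 0.00 without PVR replicate 2, -0.05 without normal replicate 3 and -0.36 without PVR replicate 3. Over all genes tested the median was -0.01.

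In a wider list of 24 ganglion cell genes, 24 of 24 were tested and edgeR called 0 in either direction. At an unadjusted p under 0.05, 0 were higher and 3, or 12.5%, were lower, near the 9.94% of all genes that were lower at this level. The median log2 fold change was -0.23 and 22 of 24 were negative; without PVR replicate 2 the median was -0.07 with 17 negative. NEFL and NEFM, the light and medium neurofilaments of large axons, were among the most abundant. NEFL had 486, 463 and 653 CPM in normal and 453, 358 and 569 CPM in PVR (log2 fold change -0.21, adjusted p = 0.552). NEFM had a log2 fold change of -0.19 (adjusted p = 0.572), and UCHL1, a neuronal ubiquitin hydrolase, one of -0.21 (adjusted p = 0.433). PVR replicate 2 was the lowest sample in 19 of the 24 genes, where it was lowest in 26.1% of all genes tested.

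SPP1, osteopontin, which alpha ganglion cells hold and macrophages make too, was singled out after its values were seen. It had 71.0, 78.3 and 59.6 CPM in the normal samples and 42.7, 30.2 and 50.0 CPM in PVR, with no overlap between the groups. The log2 fold change of SPP1 was -0.77 (SE 0.19), and edgeR gave an adjusted p of 0.0893. DESeq2 gave 0.00246, and over all 15 alternatives the adjusted p rose to 0.297. KCNG4, a potassium channel subunit of the same cells, also chosen after its values were seen, had 65.0, 80.8 and 61.7 CPM in normal and 55.2, 43.5 and 59.1 CPM in PVR. On the log2 scale KCNG4 differed by -0.39 (SE 0.15, adjusted p = 0.188). Markers of other ganglion cell types, named here after their values were seen, had fewer reads. OPN4, the melanopsin of light-sensing ganglion cells, had between 13 and 73 counts, and the transcription factors EOMES, TBR1 and FOXP2 had between 24 and 287. The interval of the log2 fold change was wide for OPN4, from -1.07 to 1.59, and for TBR1, from -1.34 to 0.82. It was narrower for EOMES, from -0.71 to 0.48, and for FOXP2, from -0.20 to 0.84.

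Of 20 further genes of axon growth, 18 were matched and tested, and edgeR called 0 in either direction. At an unadjusted p under 0.05, 0 were higher and 3, or 16.7%, were lower, beside the same 9.94% of all genes. The 3 were MARCKSL1, DCX and BASP1. BASP1 overlapped between the groups and was highest in normal replicate 2, the sample with most lens RNA, at 184 CPM. The median log2 fold change was -0.23 with 16 of 18 negative. The most abundant were MAP1B, DPYSL2 and NCAM1. MAP1B, which binds microtubules in growing axons, had 2380, 2192 and 2645 CPM in normal and 2376, 2373 and 2365 CPM in PVR. The log2 fold change was -0.02, within an interval from -0.23 to 0.19. DPYSL2, a mediator of semaphorin signals in growth cones, had a log2 fold change of -0.25 (adjusted p = 0.276), and NCAM1, a neural adhesion molecule, of -0.21 (adjusted p = 0.281). MARCKSL1, an actin regulator at the membrane that was chosen after its values were seen, had 37.7, 43.3 and 40.0 CPM in normal and 27.0, 23.7 and 30.3 CPM in PVR. The groups did not overlap, and its log2 fold change was -0.58 (SE 0.12, adjusted p = 0.0638).

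**Figure D4:**
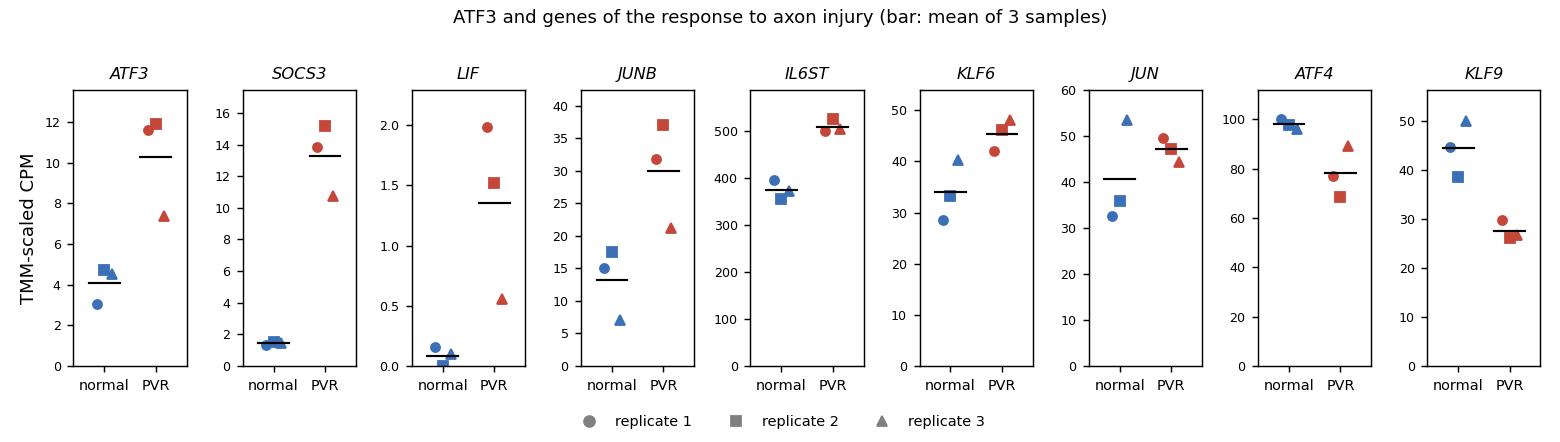
TMM-scaled CPM of ATF3 and 8 genes linked to axon injury in 3 normal (blue) and 3 PVR (red) samples, with the mean as a bar and a separate vertical scale in each panel. LIF, JUNB and KLF6 were chosen after their values were seen. Of the 23 genes of this list tested, 6 had all PVR samples above all normal ones and 2 below, and the rest, mostly not shown, overlapped. Over all genes these shares were 13.4% and 14.6%. SOCS3 and KLF9 passed the adjusted threshold, SOCS3 with a mean of 1.42 CPM in normal and 13.3 CPM in PVR, and KLF9 with 44.6 and 27.6 CPM.

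Among 26 genes linked to axon injury, 24 were matched and 23 tested. EdgeR called 1 higher and 1 lower, where 1.09% of all genes were called higher and 0.615% lower. At an unadjusted p under 0.05, 6 were higher and 3, or 13%, lower, beside 11.3% and 9.94% of all genes. The 6 were SOCS3, LIF, IL6ST, JUNB, KLF6 and ECEL1, and the 3 were KLF9, ATF4 and CHAC1. Every PVR sample was above every normal one in 6 and below in 2, beside 13.4% and 14.6% of all genes. The median log2 fold change was 0.15 with 13 of 23 positive. SOCS3, the feedback inhibitor of cytokine signalling that limits regrowth of ganglion cell axons, rose from 1.31, 1.52 and 1.43 CPM to 13.9, 15.2 and 10.7 CPM. This was a log2 fold change of 3.22 (SE 0.21, adjusted p = 0.00130), and it passed in all 15 alternatives. As with ATF3, the cell type in which SOCS3 or any other gene of this list was made cannot be read from bulk retina. KLF9, a zinc finger factor that restrains neurite growth, fell from 44.8, 38.7 and 50.1 CPM to 29.8, 26.2 and 26.7 CPM. Its log2 fold change was -0.69 (SE 0.12, adjusted p = 0.0441). KLF9 lost the call in 11 of 15 alternatives, each left-out sample among them, with an adjusted p of up to 0.206 without PVR replicate 1.

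IL6ST, the shared receptor chain of the cytokines CNTF and LIF, had 396, 356 and 373 CPM in normal and 500, 526 and 504 CPM in PVR. Its groups did not overlap, and its log2 fold change was 0.45 (SE 0.08, adjusted p = 0.0532). LIF, chosen after its values were seen, had 6, 0 and 4 counts in normal and 65, 51 and 24 counts in PVR (adjusted p = 0.0792). JUN, the partner of ATF3 on DNA in injured neurons, overlapped between the groups at 32.7, 35.8 and 53.6 CPM and 49.7, 47.3 and 44.5 CPM (log2 fold change 0.21, adjusted p = 0.526). ATF4, a stress factor upstream of ATF3, had all PVR samples below all normal samples, with 100, 97.7 and 96.2 CPM in normal and 77.1, 68.4 and 89.1 CPM in PVR (log2 fold change -0.33, adjusted p = 0.139). SOX11 and GAL, both known from regrowing neurons and named after their values were seen, were scarce, with SOX11 between 14 and 28 counts and GAL at 0 or 1.

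Of the 9075 genes with a symbol and a mean of at least 10 CPM, those whose pattern over the 6 samples was most like the mean pattern of the 7 identity genes were FAT3, DMAC2, COPS2, CHRNB3 and NGRN. Their Pearson r to it was between 0.989 and 0.994, given as a description. CHRNB3 belongs to the wider ganglion cell list above, and FAT3, DMAC2, COPS2 and NGRN belong to none of the lists used here. CHRNB3, a nicotinic receptor subunit of ganglion cells, had 122, 119 and 138 CPM in normal and 110, 77.3 and 156 CPM in PVR, so that the lowest and the highest sample were both PVR samples. The points share their libraries, and 6 samples allow many genes to reach such values.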

How the data were processed

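Polyadenylated RNA of 3 normal and 3 PVR rabbit retina samples, grouped by title, was analysed. Per the paper, the authors aligned reads to OryCun2.0 with HISAT2 and deposited raw read counts per gene from htseq-count; the labels also name fastp. The strand setting is not given in the sources used here. The authors also deposited FPKM values, which equal the counts divided by gene length and total count. Genes were matched by symbol, or otherwise by RefSeq gene identifiers of mOryCun1.1, used for names only (TUBB3, CRMP1, PDE6B and CD3D).

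The counts were tested in R 4.3.3 with edgeR 4.0.16 (default filter, TMM, quasi-likelihood test), with Benjamini-Hochberg adjustment over the 18697 genes tested. SE is the log2 fold change divided by the root of F. Alternatives used DESeq2 1.42.0, limma 3.58.1, other scalings, filters and pseudocounts, a block for the replicate number, and fits without each sample in turn. The tests were also run on simulated counts. These held no shift shared by many genes of a sample, and their changes were larger than those fitted for the members. They therefore cannot show how the tests behave with such shifts or with small changes. Tables and plots used Python 3.11.15.

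The members and lists were chosen with earlier results of these data known. Named genes are the members, called genes of 3 further lists with the 3 highest in FPKM of each, and the 5 most like the identity pattern; every other gene named was chosen after its values were seen. The values of 1 gene of the wider ganglion cell list are not reported here. Depth limits precision, and the intervals rest on the spread between samples.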

Additional observations from a re-analysis of the deposited data

How the results depend on the processing

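The count of members called lower was 0 in all 15 alternatives, and that of members called higher was 0 in 13. DESeq2 called 1 member (ATF3), 1093 genes higher and 705 lower over all genes in place of 203 and 115, 1 gene lower in the wider ganglion cell list (SPP1), 1 lower in the axon growth list (MARCKSL1) and 5 higher in the axon injury list. The axon injury list had 2 genes higher with RLE factors, limma-voom and both FPKM scales, and 0 lower with upper-quartile factors, limma-voom and both FPKM scales. Over all genes, 141 were higher and 74 lower with limma-voom, 165 and 55 on log2(FPKM + 1) and 188 and 66 on log2(FPKM + 0.1).

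With samples left out in turn, 16 to 516 genes were higher and 6 to 250 lower over all genes, with 16 and 6 without PVR replicate 1, 49 and 49 without normal replicate 1, 56 and 20 without normal replicate 2, 83 and 30 without PVR replicate 2, 307 and 250 without normal replicate 3 and 516 without PVR replicate 3. Members higher ranged from 0 to 1, the wider ganglion cell list and the axon growth list from 0 to 1 lower, and the axon injury list from 1 to 2 higher and 0 to 1 lower. The 1 came without PVR replicate 3 in the members and in the ganglion cell and axon growth lists. The correlations between same-numbered samples were -0.02, 0.05 and 0.01, and those between the others ran from -0.07 to 0.07. With 3 samples per group they cannot show whether the numbers pair samples, which the sources used here do not state. With the replicate block, 62 genes were higher and 30 lower, and the members stayed at 0. The axon injury list then had 1 higher and 0 lower, and the edgeR adjusted p of ATF3 was 0.119. The causes were not tested. The medians of lists over the alternatives were added after the data had been seen. Genes under about 100 counts, such as OPN4, TBR1 and IRX2, had intervals that reached beyond 1 in size on the log2 scale.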

Other observations

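Cholinergic amacrine cells lie partly in the ganglion cell layer and share ISL1 with ganglion cells. CHAT, the enzyme that makes acetylcholine, was chosen after its values were seen. It had 8.22, 7.05 and 7.66 CPM in the normal samples and 4.37, 3.63 and 4.26 CPM in PVR, with no overlap. Its log2 fold change was -0.90 (SE 0.18), with an adjusted p of 0.0612 from edgeR. SLC18A3, the vesicular transporter of acetylcholine and the other cholinergic marker of the list, was scarce, with 11, 7 and 1 counts in normal and 14, 6 and 16 counts in PVR. Its groups overlapped, and its log2 fold change of 0.98 had an interval from -0.93 to 2.89 (edgeR adjusted p = 0.514). The other amacrine genes of the list were also named after their values were seen. GAD1, GAD2 and SLC6A9 had log2 fold changes of -0.07, -0.04 and -0.10 (edgeR adjusted p from 0.579 to 0.856), and TFAP2A one of -0.06. SLC32A1 had all PVR samples below all normal ones (log2 fold change -0.29, edgeR adjusted p = 0.25). TFAP2B had all PVR samples above all normal ones (log2 fold change 0.16, edgeR adjusted p = 0.25). The 8 amacrine markers summed to 531 to 547 CPM in normal and 497 to 551 CPM in PVR.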
